A study of Mus musculus with 24 samples.

Results

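Smoc1, Synpo2, Rassf2 and Edaradd are 4 of the 19938 genes measured in this series, and were chosen by their difference between B cell precursors that carried 1 and 2 copies of Pax5. They are 4 of the 5 genes that passed limma between the oncogene-bearing precursors (adjusted p threshold 0.05 over all genes). The 5th was Hdac11, which encodes a histone deacetylase. Each of the 4 genes is represented by 1 probe set, and each was followed on all 24 arrays, in precursors, in wild-type B220+ cells and in leukaemias. All values below are log2 expression levels after RMA, a normalization of Affymetrix arrays, so a difference of 1 is a doubling of the signal. Levels of different genes are not compared, because the probes differ.

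The study asked how the dosage of Pax5 and the BCR/ABLp190 oncogene bear on the development of B cell precursor leukaemia in mice. BCR/ABLp190 is the fusion kinase of Philadelphia-positive leukaemia, and here the Sca1 promoter drives it. The heterozygous leukaemias were tumour-bearing bone marrow of 7 mice with Sca1-BCR/ABLp190 and 1 functional Pax5 allele (Pax5+/-), and the leukaemias with both copies were tumour-bearing marrow of 2 Sca1-BCR/ABLp190 mice. The precursors were pro-B and pre-B cells of bone marrow: 3 samples from preleukaemic Sca1-BCR/ABLp190+Pax5+/- mice (heterozygous precursors), 3 from preleukaemic Sca1-BCR/ABLp190 mice (BCR/ABL precursors with both copies), and 4 samples were from wild-type mice. A last group of 5 samples was B220+ B cells of wild-type marrow, B220 being a surface marker of B cells. The study text gives 3 wild-type mice for the precursors while the labels give 4, and all 4 were used. All mice lived in a conventional facility with exposure to common pathogens. No sort is named for the leukaemic marrow and no ages are given. No group was heterozygous for Pax5 without the oncogene. In whole marrow, fewer cells of a type and less RNA per cell cannot be told apart.

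Pax5 is the transcription factor that commits lymphoid progenitors to the B lineage and keeps them there, activating B cell genes and repressing genes of other lineages. Loss of a PAX5 copy is a frequent lesion of B cell precursor leukaemia. The 4 genes belong to unlike pathways. Smoc1 encodes a secreted, calcium-binding matrix protein of the SPARC family that modulates BMP signalling. Synpo2, also called myopodin, encodes an actin-binding protein of the Z-disc of muscle. Rassf2 encodes a Ras-association domain protein without enzyme activity that binds the MST kinases of the Hippo pathway. Edaradd encodes the death-domain adaptor that links the ectodysplasin receptor to NF-kB activation.

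The bases before the start of 3 of the 4 genes were found in the RefSeq promoter table (GRCm38.p6), and they are shown because the genes were chosen by the copy number of a DNA-binding factor. Each sequence is the 250 bases before the annotated start, on the minus strand, 5′ to 3′: Synpo2 at chr3:123236150-123236399, Rassf2 at chr2:132030325-132030574 and Edaradd at chr13:12520451-12520700. The start is the one in the promoter table. The annotated gene spans reach into these windows, to bases 123236168, 132030416 and 12520535 in the same order. Smoc1 was not matched. Capitals mark matches to 4 motifs searched on both strands: the PAX5 core GCGTGAC, the E-box CAGGTG bound by E2A, the STAT motif TTCNNNGAA and the EBF1 palindrome.
Synpo2: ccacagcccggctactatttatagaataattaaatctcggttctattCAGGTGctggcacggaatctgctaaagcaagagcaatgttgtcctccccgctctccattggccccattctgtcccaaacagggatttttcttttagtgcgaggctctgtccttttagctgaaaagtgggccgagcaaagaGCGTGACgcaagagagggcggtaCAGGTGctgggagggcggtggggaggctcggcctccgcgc
Rassf2: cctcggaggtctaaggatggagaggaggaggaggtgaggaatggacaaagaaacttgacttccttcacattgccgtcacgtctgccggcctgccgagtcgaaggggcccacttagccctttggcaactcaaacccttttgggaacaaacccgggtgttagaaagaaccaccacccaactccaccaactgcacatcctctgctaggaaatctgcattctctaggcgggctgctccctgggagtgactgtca
Edaradd: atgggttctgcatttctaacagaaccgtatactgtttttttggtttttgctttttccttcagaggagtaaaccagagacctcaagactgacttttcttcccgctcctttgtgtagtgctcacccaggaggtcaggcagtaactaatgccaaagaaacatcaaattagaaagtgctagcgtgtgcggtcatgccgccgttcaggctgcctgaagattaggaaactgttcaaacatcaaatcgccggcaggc
The Synpo2 sequence held the PAX5 core on the forward strand, 63 to 57 bases before the start, and the E-box CAGGTG on the same strand, 203 to 198 and 40 to 35 bases before it. No match overlapped another. The Rassf2 and Edaradd sequences held no match to the 4 motifs. Over the same 250 bases of all 32851 RefSeq promoters, 1.78% held GCGTGAC, 17.2% CAGGTG, 7.02% TTCNNNGAA and 0.779% the EBF1 palindrome. A match is a run of letters and no evidence of binding.

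Pax5 itself was measured at 11.80, 11.58 and 12.00 in the heterozygous precursors, at 11.93, 12.03 and 12.19 in BCR/ABL precursors with both copies, and at 11.81 to 12.02 in wild-type precursors. The 3 ranges overlapped, so the Pax5 probe set did not separate precursors by copy number, and where its probes lie relative to the altered allele is not known here. The mean of 10 measured B lineage markers was 11.69 to 12.20 over the 10 precursor arrays, and that of 12 pro-B and pre-B markers 10.48 to 10.73. B lineage means were 12.37 to 12.55 in B220+ cells, 9.11 to 10.94 in heterozygous leukaemias and 8.58 to 9.06 in leukaemias with both copies. Cd79a, which encodes a chain of the B cell receptor, lay between 12.73 and 13.39 in all precursors and between 8.88 and 11.95 in the leukaemias.

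In precursors, the heterozygous arrays had higher Smoc1, Synpo2 and Rassf2 and lower Edaradd than either group with both copies. Since the genes were selected on these arrays, the values that follow describe the choice and carry no test. Smoc1 was 8.15, 7.79 and 8.20 in the heterozygous precursors. It was 6.72, 6.66 and 7.03 in the BCR/ABL precursors with both copies. In the wild-type precursors it was 6.57, 6.51, 6.46 and 6.80. The lowest heterozygous array stood above every other precursor, and the groups with both copies overlapped each other. The estimates were 1.24 ± 0.14 (SE) above BCR/ABL precursors with both copies, a 2.37-fold difference, and 1.46 ± 0.13 above wild type.

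Synpo2 was 7.24, 7.30 and 7.50 in the heterozygous precursors and 6.13, 6.19 and 6.51 in the BCR/ABL precursors with both copies. The wild-type precursors had 6.54, 6.39, 6.66 and 6.51. Again the heterozygous arrays were the highest 3, and the groups with both copies overlapped each other. The difference was 1.07 ± 0.11 (2.09-fold) against BCR/ABL precursors with both copies, and 0.82 ± 0.11 against wild type.

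Rassf2 had the smallest difference of the 4 genes. It was 10.68, 10.51 and 10.54 in the heterozygous precursors and 10.01 on each of the 3 arrays of BCR/ABL precursors with both copies (SD 0.00074). Wild-type precursors had 10.30, 10.17, 10.14 and 10.16. The 3 groups did not overlap, and wild type lay between the other two. The heterozygous precursors were 0.56 ± 0.065 (1.48-fold) above BCR/ABL precursors with both copies and 0.38 ± 0.061 above wild type.

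Edaradd was the gene with the lower level in heterozygous precursors, at 8.21, 7.84 and 7.72. BCR/ABL precursors with both copies had 9.05, 9.35 and 9.56. Wild-type precursors had 9.35, 9.39, 9.40 and 9.44. The highest heterozygous array stood below the lowest array of either other group. The heterozygous precursors were lower by 2.63-fold than BCR/ABL precursors with both copies (log2 difference -1.40 ± 0.14), and the log2 difference from wild type was -1.47 ± 0.13. By size of the difference between the oncogene-bearing precursors, Edaradd ranked 26, Smoc1 36, Synpo2 65 and Rassf2 335 among all genes.

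**Figure D1:**
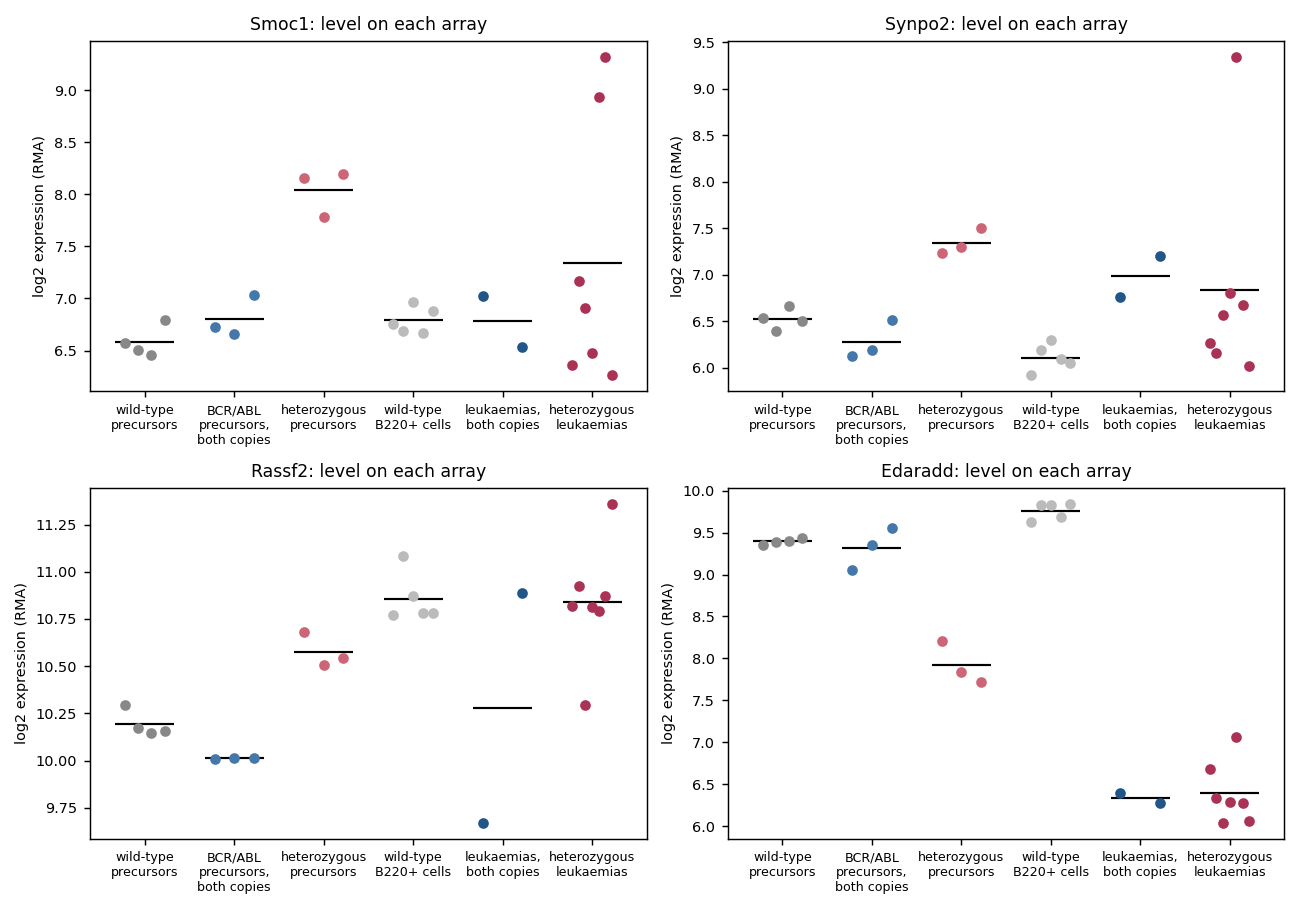
Each point is the log2 expression of one gene on one array, with the 6 groups along the horizontal axis and a line at each group mean; the vertical axes differ between genes. In the precursors the 3 heterozygous arrays stand apart from the other 7 for each gene, while among the 7 heterozygous leukaemias Smoc1 reached 8.93 and 9.32 on 2 arrays and Synpo2 9.34 on 1, and Edaradd was at or below 7.07 on all.

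The arrays of the 4 genes did not overlap between heterozygous precursors and BCR/ABL precursors with both copies, as for 16.5% of all genes, nor between heterozygous and wild-type precursors, as for 24.3%. Nothing is read from these counts, because the contrast chose the genes, and both comparisons use the same heterozygous arrays. The values that chose them were adjusted p-values of 0.0237 for Edaradd, 0.0257 for Synpo2, 0.0272 for Smoc1 and 0.0284 for Rassf2 by limma over all genes. Just outside the threshold stood Myl4, Tspan32 and Usp10 at 0.0621, with log2 differences of 0.47, 0.62 and 0.49. With the replicate number as a block over all 10 precursor arrays, limma passed 0 genes in this comparison, against 5 without it. The block also tied the wild-type arrays to the same numbers, although theirs are only numbers. Its values thus do not isolate the pairing of the oncogene-bearing precursors. At an unadjusted p under 0.05 the counts were 2687 with the block and 2849 without. The block left the estimates of the 4 genes as they were, with SEs of 0.11 for Smoc1, 0.072 for Synpo2, 0.063 for Rassf2 and 0.17 for Edaradd.

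Between BCR/ABL precursors with both copies and wild-type precursors, the log2 differences were 0.22 ± 0.13 for Smoc1, -0.24 ± 0.11 for Synpo2, -0.18 ± 0.061 for Rassf2 and -0.074 ± 0.13 for Edaradd. Each was smaller than the difference between the heterozygous precursors and either other group. Rassf2 was the only one of the 4 whose arrays did not overlap between these 2 groups, and its sign turned when the arrays were scaled again (0.039 after quantile normalization and 0.040 after cyclic loess).

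Sex and cell content moved with the precursor groups. By Xist, the RNA of the inactive X chromosome, heterozygous precursors 1 and 2 were male and 3 was female, all BCR/ABL precursors with both copies were male and all wild-type precursors female. Among males, the 2 heterozygous arrays differed from the 3 with both copies by 1.17 for Smoc1, 0.99 for Synpo2, 0.58 for Rassf2 and -1.30 for Edaradd. The female heterozygous array differed from the 4 wild-type arrays by 1.61, 0.98, 0.35 and -1.67 in the same order. The male values are part of the comparison that chose the genes, and the female values rest on 1 heterozygous array, so neither is a check on sex.

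The mean of 5 measured erythroid markers of 9 was 7.78 to 7.91 in heterozygous precursors, 8.40 to 9.54 in BCR/ABL precursors with both copies and 8.30 to 8.72 in wild type. For 11 neutrophil markers the means were 7.38 to 7.72, 7.49 to 10.49 and 7.40 to 9.16, with the 10.49 on 1 array, BCR/ABL precursor 1 with both copies. None of these erythroid and neutrophil genes passed limma between the oncogene-bearing precursors, with 2 erythroid and 0 neutrophil genes at an unadjusted p under 0.05. T and NK cell marker means were 6.98 to 7.64, 6.78 to 7.55 and 7.92 to 8.33, and cell cycle gene means 8.90 to 10.35, 9.21 to 10.24 and 10.84 to 11.00. Heterozygous precursors thus had the lowest erythroid means, and wild type the highest T and NK cell and cell cycle means. No marker list is at 0 on this scale, and the part of these cells in the 4 genes was not tested. Leaving out each precursor array in turn, BCR/ABL precursor 1 with both copies among them, the differences between the oncogene-bearing precursors, whose directions the choice had fixed, were 1.17 to 1.37 for Smoc1, 0.99 to 1.18 for Synpo2, 0.51 to 0.60 for Rassf2 and -1.54 to -1.28 for Edaradd.

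The leukaemia arrays were not used in the choice. Against wild-type B220+ cells, Edaradd fell in heterozygous leukaemias, while Smoc1, Synpo2 and Rassf2 did not pass the test. Edaradd was 9.62, 9.83, 9.83, 9.69 and 9.84 in the B220+ cells. In the 7 heterozygous leukaemias it ranged from 6.04 through a median of 6.29 to 7.07. The highest leukaemia stood far below the lowest B220+ array. All leukaemias but number 5 lay below 6.75, the median of all probe sets over the 24 arrays. No background level was used here, so a fold against such levels may be a lower bound. The precursor ratios of Smoc1 and Synpo2, set against levels at about or below that median, have the same limit. The log2 difference was -3.37 ± 0.15, a measured ratio of 10.3-fold, with an adjusted p of 2.38e-08 by limma, and Edaradd was lower on 7 of 7 arrays. All B220+ arrays were female by Xist, as were 3 of the 7 leukaemias, and with sex as a covariate the difference was -3.32 (limma adjusted p = 1.05e-06). It was the 1 gene of the 4 that limma called here, where 31.8% of all genes were called, and the 1 whose arrays did not overlap, where 20.1% did not. A share of 1 in 4 is near that background. The call held under every alternative run that kept the B220+ control, with limma adjusted p within 6.68e-13 to 9.32e-05. That range was taken with the run that had wild-type precursors as the control. Those arrays entered the fit that chose the genes, so that run is no test here.

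The leukaemias with both copies had Edaradd at 6.39 and 6.27. Both arrays lay within the range of the heterozygous leukaemias. Against the same B220+ arrays the log2 difference was -3.43 ± 0.22, a measured ratio of 10.8-fold with the same limit, and the limma adjusted p was 1.45e-06. It was again the 1 gene of the 4 called, where 21.4% of all genes were called. Between the 2 kinds of leukaemia the Edaradd difference was 0.061 ± 0.21 with a 95% interval from -0.40 to 0.52 (limma adjusted p = 0.948). Both groups lay at about or below the median of all probe sets, so a further fall in either may not have been measurable.

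Edaradd was also below every precursor array in all 9 leukaemias. The mean of the 7 heterozygous leukaemias differed by -1.53 from that of the heterozygous precursors, and the mean of the 2 with both copies by -2.99 from that of the BCR/ABL precursors with both copies. These are whole marrow against selected precursors, so the values stand side by side with no test. B lineage markers fell in the same leukaemias. All 10 measured markers passed limma against B220+ cells, with changes from -4.30 to -1.41 and a median of -2.26 in heterozygous leukaemias, and from -5.56 to -2.62 with a median of -3.54 in leukaemias with both copies. Cd72 and Vpreb3 fell more than Edaradd in the former, and 6 of the 10 markers did in the latter. The part of the B cell share in the fall of Edaradd was not tested. On heterozygous leukaemia 7, Pax5 was 12.06 while the B lineage mean was 9.69, below the precursors, and Edaradd was 6.07.

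**Figure D2:**
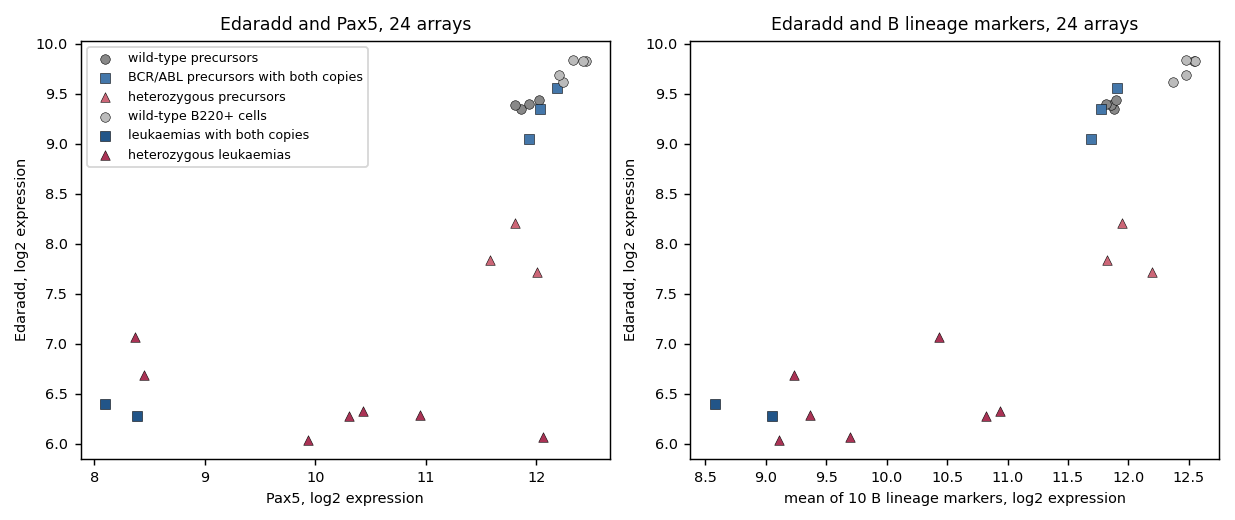
Edaradd (vertical axis, log2 expression) is plotted for 24 arrays against Pax5 at left and against the mean of 10 B lineage markers, Pax5 among them, at right, with a symbol and colour for each group. The heterozygous precursors, at 7.72 to 8.21, lie below the other precursors at a similar Pax5 and B lineage level, and the 9 leukaemias lie at 7.07 or below over Pax5 levels from 8.10 to 12.06.

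Smoc1 varied more among the heterozygous leukaemias than in any other group. It was 6.36, 7.17, 6.90, 6.47, 8.93, 9.32 and 6.26 on arrays 1 to 7, a mean of 7.35 ± 1.26 (SD, n = 7). B220+ cells had 6.75, 6.68, 6.97, 6.67 and 6.88, and leukaemias with both copies 7.03 and 6.53. Heterozygous leukaemias 5 and 6 stood above the heterozygous precursors, and the other 5 stood below them. Against B220+ cells, 3 leukaemias lay above, 3 below and 1 within the range. The difference was 0.56 ± 0.51 with a 95% interval from -0.56 to 1.67 (limma adjusted p = 0.420). Without leukaemias 5 and 6, left out after their values were seen, it was -0.16 ± 0.17.

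Synpo2 was high on 1 heterozygous leukaemia. The values on arrays 1 to 7 were 6.27, 6.16, 6.56, 6.81, 9.34, 6.67 and 6.02, a mean of 6.83 ± 1.14 (SD, n = 7). The leukaemias with both copies had 6.76 and 7.20, and B220+ cells 5.92, 6.19, 6.29, 6.09 and 6.05. Leukaemia 5 stood above the heterozygous precursors and the other 6 below them, while 4 of the 7 stood above the B220+ range. The difference from B220+ cells was 0.72 ± 0.47 (95% interval -0.28 to 1.73, limma adjusted p = 0.247) in heterozygous leukaemias. In leukaemias with both copies it was 0.87 ± 0.66 (95% interval -0.56 to 2.31, limma adjusted p = 0.360). Heterozygous leukaemia 5 set this spread: without it the estimate for leukaemias with both copies stayed at 0.87 and its limma adjusted p was 0.0101.

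Heterozygous leukaemia 5 was thus high in both Smoc1 and Synpo2, and leukaemia 6 in Smoc1. Leukaemia 5 also had the highest mean of the 12 pro-B and pre-B markers among the leukaemias, at 10.37 where the other heterozygous leukaemias had 7.99 to 9.87. For smooth muscle and pericyte markers, leukaemias 5 and 6 had means of 6.83 and 6.98 in a range of 6.82 to 7.38 over the 7, against 6.32 to 6.40 in B220+ cells. Means of 12 stromal and endothelial markers were 7.17 to 9.22 in heterozygous leukaemias and 6.50 to 6.60 in B220+ cells, with 8.65 and 9.03 on leukaemias 5 and 6. Means of 12 monocyte and macrophage markers were 7.92 to 10.32 and 6.50 to 6.87. Leukaemia 5 also had the highest plasma cell marker mean of the 7 (10.03). Leukaemia 6 had the highest means of the erythroid (11.16), neutrophil (9.66) and immature and mature B cell markers (10.01). Neither had the highest mean of the muscle, stromal or macrophage markers. The part of any of these cells in Smoc1 or Synpo2 was not tested.

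Rassf2 in the heterozygous leukaemias lay at the level of B220+ cells. The leukaemias ranged from 10.30 through a median of 10.82 to 11.36, and B220+ cells were 10.77, 11.08, 10.87, 10.78 and 10.78. Of the 7 leukaemias, 5 were within the B220+ range, and 6 were above the heterozygous precursors. The difference was -0.018 ± 0.20 with a 95% interval from -0.44 to 0.40 (limma adjusted p = 0.950). With wild-type precursors as the control, in one limma fit of all 24 arrays, Rassf2 was instead 0.65 ± 0.17 higher. This sets whole marrow against selected precursors, whose arrays entered the fit that chose the genes, so the value is given with no test. Against B220+ cells Rassf2 had no clear direction: it was 0.051 after quantile normalization and 0.097 after cyclic loess. The difference from wild-type precursors was thus not seen against B220+ cells.

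The 2 leukaemias with both copies disagreed on Rassf2, at 9.67 and 10.89. Their difference from B220+ cells was -0.58 ± 0.28 (95% interval -1.18 to 0.027, limma adjusted p = 0.156). It was -1.19 with adjusted p = 0.00622 without leukaemia 2 with both copies, and 0.031 without leukaemia 1 with both copies. The difference between the 2 kinds of leukaemia, 0.56 ± 0.27 (95% interval -0.020 to 1.14, limma adjusted p = 0.384), moved likewise: 1.17 with adjusted p = 0.0122 without leukaemia 2 with both copies and -0.049 without leukaemia 1. One array thus decided each Rassf2 value.

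Between heterozygous leukaemias and leukaemias with both copies, limma called 0 of the 4 genes at adjusted p under 0.05, where 1.87% of all genes were called, and 0 at an unadjusted p under 0.05. Smoc1 differed by 0.57 ± 0.70 (95% interval -0.95 to 2.09, adjusted p = 0.822) and Synpo2 by -0.15 ± 0.64 (95% interval -1.53 to 1.23, adjusted p = 0.958). Each interval is wide enough to hold the same gene's own precursor difference, 1.24 for Smoc1 and 1.07 for Synpo2. The 2 kinds of leukaemia also differed in cell content. Means of 11 neutrophil markers were 11.58 and 12.20 in leukaemias with both copies, 7.16 to 9.66 in heterozygous leukaemias and 7.20 to 9.68 in B220+ cells. Between the leukaemias 7 of the 11 markers were called lower in heterozygous leukaemias by limma, with a median of -3.74, and against B220+ cells 8 rose in leukaemias with both copies. B lineage markers had a median difference of 1.16 between the leukaemias, higher in heterozygous ones. Limma called 1 of these 10, with 4 at an unadjusted p under 0.05. For immature and mature B cell markers the median was 1.18, with 0 of 11 called and 6 at an unadjusted p under 0.05. The part of neutrophils and B cells in the 4 genes was not tested. With 2 arrays in the smaller group these data do not place either gene above or below in the leukaemias by Pax5 copy. Against B220+ cells, Smoc1 in leukaemias with both copies differed by -0.010 ± 0.73 (95% interval -1.60 to 1.58, adjusted p = 0.993).

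**Figure D3:**
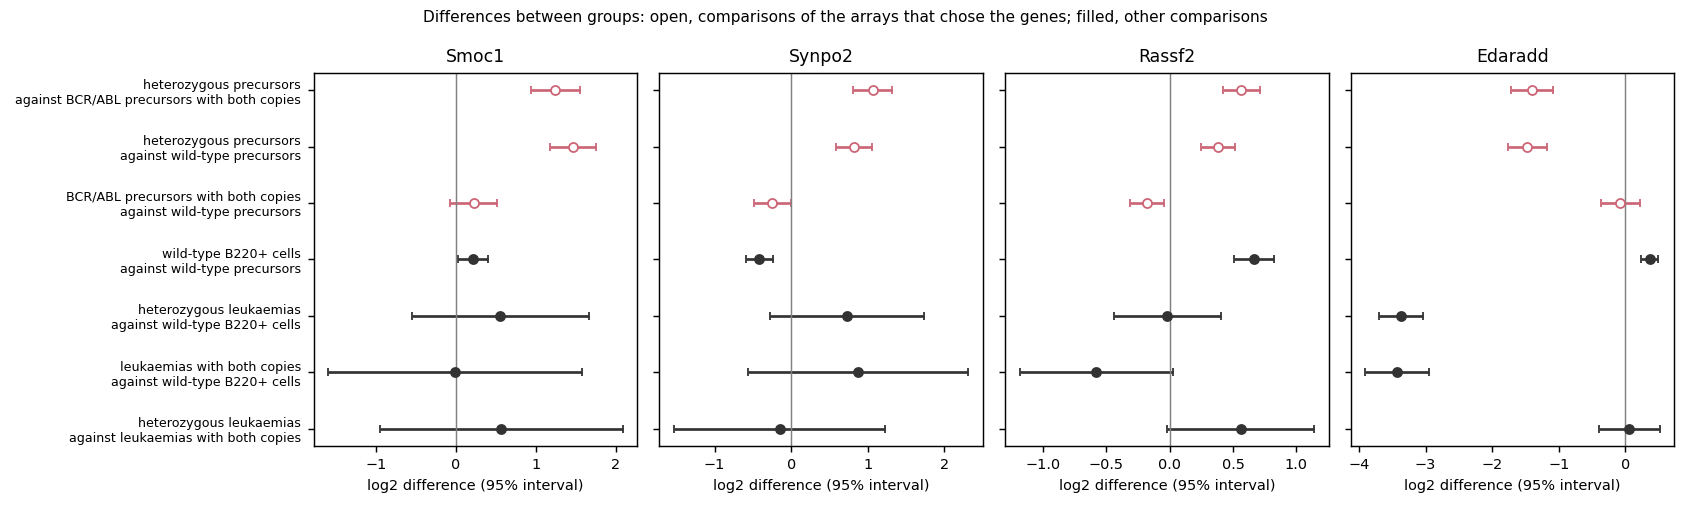
Points are log2 differences between 2 groups from limma and bars are 95% intervals, one panel per gene, with the 7 comparisons on the vertical axis; open points use the arrays that chose the genes and filled points do not, except that one filled comparison uses the wild-type precursors. Edaradd lies at -3.37 and -3.43 against B220+ cells, while the intervals of Smoc1, Synpo2 and Rassf2 in the leukaemias include 0.

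Between wild-type B220+ cells and wild-type precursors, Rassf2 and Edaradd rose and Synpo2 fell. B220+ marrow cells include later B cell stages than pro-B and pre-B cells: 11 immature and mature B cell markers averaged 11.37 to 11.66 there and 9.06 to 9.33 in wild-type precursors. Rassf2 was 0.67 ± 0.071 higher in B220+ cells (limma adjusted p = 7.99e-05) and Edaradd 0.37 ± 0.058 higher (adjusted p = 0.000883). Synpo2 was lower, by -0.42 ± 0.081 (limma adjusted p = 0.00327). Each of these 3 differences held on 5 of 5 B220+ arrays. Limma called 3 of the 4 genes, where 24% of all genes were called. The wild-type precursor arrays were part of the fit that chose the genes, through the shared spread, so these p-values are not independent of the choice. In one fit of all 24 arrays, whose spread includes the leukaemias, Synpo2 and Edaradd no longer passed (adjusted p = 0.692 and 0.190).

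Smoc1 was 0.21 ± 0.085 higher in B220+ cells than in wild-type precursors and did not pass (limma adjusted p = 0.112). It passed without wild-type precursor 4, at 0.28 with adjusted p = 0.0311. Edaradd, the gene with lower levels in heterozygous precursors, thus had its highest levels in normal B220+ cells, and Synpo2 its lowest there.

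Ordered by group mean, Smoc1 ran from heterozygous precursors (8.05 ± 0.23, SD) through heterozygous leukaemias (7.35 ± 1.26), BCR/ABL precursors with both copies (6.80 ± 0.20), B220+ cells (6.79 ± 0.13) and leukaemias with both copies (6.78 ± 0.35) to wild-type precursors (6.58 ± 0.15). Each pair of neighbours in that order overlapped. Synpo2 ran from heterozygous precursors (7.34 ± 0.14) through leukaemias with both copies (6.98 ± 0.31), heterozygous leukaemias (6.83 ± 1.14), wild-type precursors (6.52 ± 0.11) and BCR/ABL precursors with both copies (6.28 ± 0.21) to B220+ cells (6.11 ± 0.14). For Synpo2 the arrays of the first 2 groups did not overlap, and those of all later neighbours did.

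Rassf2 ran from B220+ cells (10.86 ± 0.13) through heterozygous leukaemias (10.84 ± 0.31), heterozygous precursors (10.58 ± 0.091), leukaemias with both copies (10.28 ± 0.86) and wild-type precursors (10.19 ± 0.070) to BCR/ABL precursors with both copies (10.01). Here the last 2 groups were apart and all other neighbours overlapped. Edaradd ran from B220+ cells (9.76 ± 0.10) through wild-type precursors (9.39 ± 0.037), BCR/ABL precursors with both copies (9.32 ± 0.25), heterozygous precursors (7.92 ± 0.25) and heterozygous leukaemias (6.39 ± 0.37) to leukaemias with both copies (6.33 ± 0.084). Edaradd had 3 gaps without overlap: below B220+ cells, above heterozygous precursors and below heterozygous precursors.

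Pax5 varied widely among the heterozygous leukaemias, at 8.45, 10.43, 9.93, 10.95, 8.37, 10.30 and 12.06 on arrays 1 to 7, so its relation to each gene was examined there. Edaradd had Pearson's r = -0.818 with Pax5 (exact permutation p = 0.025, adjusted p = 0.186 over 8 relations) and Spearman's rho = -0.536 (exact permutation p = 0.236). Without leukaemias 5 and 1, the 2 farthest from the median Pax5 level, r was -0.235, so the relation rests on those 2 arrays. Rassf2 had r = 0.505 (exact permutation p = 0.198) and rho = 0.643 (p = 0.139), Synpo2 r = -0.578 (p = 0.215) and rho = -0.50 (p = 0.267), and Smoc1 r = -0.356 (p = 0.435) and rho = -0.429 (p = 0.354). Without leukaemias 5 and 1 these were 0.863, -0.534 and -0.511. After adjustment none of the 3 passed (exact permutation tests, adjusted p = 0.431, 0.431 and 0.587).

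With the mean of the 9 B lineage markers other than Pax5, Smoc1 had r = 0.762 (exact permutation p = 0.0464, adjusted p = 0.186) and rho = 0.536 (exact permutation p = 0.236), and r = 0.898 without leukaemias 2 and 6. Edaradd had r = 0.367 (p = 0.440) and rho = 0.393 (p = 0.396), Synpo2 r = 0.333 (p = 0.654) and rho = -0.143 (p = 0.783), and Rassf2 r = 0.220 (p = 0.578) and rho = 0.607 (p = 0.167), all by exact permutation. Without leukaemias 2 and 6 these r were 0.827, 0.908 and 0.191. None of the 8 relations passed adjustment.

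**Figure D4:**
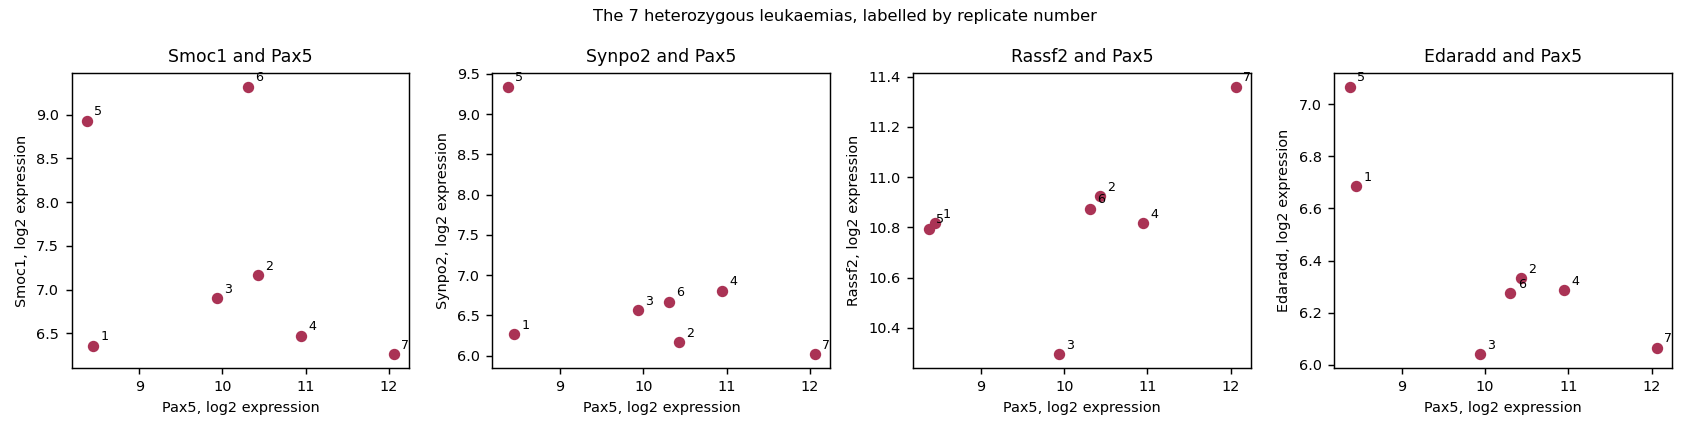
Each panel plots one gene against Pax5 on the 7 heterozygous leukaemias, both in log2 expression, with points numbered by replicate. For Edaradd, arrays 5 and 1, with the lowest Pax5 (8.37 and 8.45), have the highest values (7.07 and 6.69), and the other 5 arrays lie between 6.04 and 6.33.

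Relatives and pathway partners of the 4 genes were counted in lists put together with earlier results of these data known. For Smoc1, 30 genes of the SPARC family and BMP signalling were measured. In heterozygous leukaemias against B220+ cells 8 rose and 5 fell (limma, adjusted over all genes), which is 43.3% of the list where 31.8% of all genes were called. The list's median was 0.013, beside -0.060 over all genes. Sparc, a matrix protein of stromal cells, rose by 4.92 ± 0.36. Id3, which encodes an inhibitor of E proteins and is a BMP target, fell by 2.16, and Id2, its relative, rose by 1.83. Smoc2, the closest relative of Smoc1, was at -0.012 ± 0.059 and did not pass. In leukaemias with both copies 5 rose and 5 fell, 33.3% where 21.4% of all genes were called, with a median of 0.12 beside -0.073, and Sparc and Id3 changed by 4.75 and -1.97. Stromal marker means were higher than in B220+ cells in heterozygous leukaemias, as given above, and in leukaemias with both copies (8.02 and 9.37). Megakaryocyte marker means were higher too. They were 8.12 to 11.24 in heterozygous leukaemias, 9.30 and 11.00 in leukaemias with both copies and 7.02 to 7.30 in B220+ cells. The part of these cells in Sparc was not tested.

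Of 17 measured genes of 18 around Synpo2, 5 rose and 0 fell in heterozygous leukaemias against B220+ cells by limma (9 at an unadjusted p under 0.05, in either direction). That is 29.4% of the list, near the 31.8% of all genes, with a median of 0.32 beside -0.060 over all genes. Actn1, which encodes the actin cross-linker alpha-actinin, rose by 2.23 ± 0.32 and Bag3, a co-chaperone that binds synaptopodin family proteins, by 1.48 ± 0.26. Of the relatives of Synpo2, Synpo rose by 0.32 ± 0.071 (limma adjusted p = 0.00436), while Synpo2l was at -0.083 and did not pass. In leukaemias with both copies 6 rose and 1 fell, 41.2% beside 21.4% of all genes, with a median of 0.39, and Actn1 rose by 2.96 and Vcl, which encodes vinculin, by 1.64. Synpo rose there by 0.31 (limma adjusted p = 0.0484).

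Of 23 measured genes of 26 in the RASSF family and Hippo pathway, 1 rose and 5 fell in heterozygous leukaemias against B220+ cells, 26.1% of the list and below the 31.8% of all genes, with a median of -0.084 beside -0.060 over all genes. Among those that fell were Rassf1, a relative of Rassf2 (-0.80), Stk4, which encodes the MST1 kinase (-0.80), and Lats2, a kinase downstream of it (-0.52). In leukaemias with both copies 0 rose and 4 fell by limma (5 at an unadjusted p under 0.05, in either direction), 17.4% beside 21.4% of all genes, with a median of -0.078: Stk4 changed by -1.23, Lats2 by -0.68 and Rassf1 by -0.64.

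Of 16 measured genes of 19 on the way from ectodysplasin to NF-kB, 1 rose and 8 fell in heterozygous leukaemias against B220+ cells, 56.2% of the list where 31.8% of all genes were called, with a median of -0.26 beside -0.060. Among those that fell were Traf5, a TNF receptor-associated adaptor (-2.26 ± 0.18), Nfkbie, an inhibitor of NF-kB (-1.48 ± 0.23), and Tnfaip3, a ubiquitin-editing brake on NF-kB (-1.35 ± 0.21). The ligand Eda (-0.15 ± 0.084) and the receptor Edar (-0.011 ± 0.062) did not pass. In leukaemias with both copies 1 rose and 7 fell, 50% where 21.4% of all genes were called, with a median of -0.40, and Traf5, Tnfaip3 and Nfkbia changed by -2.67, -2.50 and -2.06. Both comparisons share the B220+ arrays. All 10 measured B lineage markers fell in both by limma. Their medians were -2.26 in heterozygous leukaemias and -3.54 in leukaemias with both copies. From wild-type precursors to wild-type B220+ cells, 6 of the 16 listed genes rose and 0 fell by limma. The part of cell content in the changes of this list, and of the Synpo2 and Rassf2 lists, was not tested.

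Between the 2 kinds of leukaemia limma passed 1 gene of the 4 lists, Nfkbia, which encodes the inhibitor IkBa, at 1.14 ± 0.26 higher in heterozygous leukaemias (adjusted p = 0.0463). The neutrophil markers given above were lower and the B cell marker medians higher in heterozygous leukaemias on the same arrays, and the part of these cells in Nfkbia was not tested. Tnfaip3 stood just outside, at 1.14 ± 0.29 (adjusted p = 0.0660). At an unadjusted p under 0.05 the lists had 4 of 30 genes around Smoc1, 2 of 17 around Synpo2, 4 of 23 around Rassf2 and 4 of 16 around Edaradd. Between the oncogene-bearing precursors limma passed 0 genes of the 4 lists, with 4, 2, 4 and 3 genes at an unadjusted p under 0.05. The list medians there were -0.058, -0.064, 0.011 and 0.10.

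The genes most like each member over all 24 arrays, by Pearson's r, are given as a description: the arrays share groups, so group differences set most of these values. Edaradd's nearest were Klhl14 (r = 0.963), Smtnl2 (0.950), Nfkbid (0.949), Sertad4 (0.940) and Gpd1l (0.936). Klhl14 averaged 10.22 in B220+ cells, 8.84 in wild-type precursors, 8.88 in BCR/ABL precursors with both copies, 7.80 in heterozygous precursors and 5.89 in heterozygous leukaemias. Sertad4 was 8.90, 8.49 and 7.33 in the 3 precursor groups, in the order wild type, both copies and heterozygous. Over the 14 arrays of leukaemias and B220+ cells alone, Edaradd's nearest were Dtx1 (0.989), Klhl14 (0.988) and Gh (0.988).

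For Rassf2 the nearest over 24 arrays were Napsa (0.914), Cnpy3 (0.896), Strada (0.879), Mob3a (0.874) and Gimap5 (0.870), and over the 14 arrays Bcl9 (0.923), Tnrc18 (0.916) and Rusc1 (0.913). For Synpo2 they were Cfap54 (0.822), Pamr1 (0.806), Efhd1 (0.803), Clic6 (0.790) and Ptk7 (0.784), and over the 14 arrays Galr3 (0.911), Ptk7 (0.911) and Pamr1 (0.903). For Smoc1 they were Ext1 (0.834), Rapgef3 (0.797), Sox15 (0.743), Ocstamp (0.710) and Stx3 (0.701), and over the 14 arrays Ext1 (0.897), Hoxa13 (0.876) and Lhx2 (0.870). Ext1, which encodes an enzyme of heparan sulphate synthesis, averaged 8.87 in heterozygous precursors, 8.24 in BCR/ABL precursors with both copies and 8.39 in wild type.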

How the data were processed

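Per the labels' protocols, Trizol was used to extract total RNA, which was biotinylated; 24 Affymetrix arrays were hybridised, 1 per mouse sample. The authors deposited log2 expression values per probe set, for which the submitters' processing notes name RMA and the package oligo; software versions and the set of arrays normalized together were not given in the sources used here. Of 35556 probe sets, 21789 had 1 gene symbol in the platform annotation, 1621 several and 12146 none. The probe set with the highest mean over 24 arrays stood for each of 19938 genes. No batch or scan date was given. Array medians were 6.70 to 6.81, correlations between arrays 0.906 to 0.995, and 0 pairs were identical.

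The group comparisons used limma 3.58.1 (R 4.3.3) on the log2 values as deposited (two-sided, Benjamini-Hochberg adjustment over all genes, no filter), in fits of the 14 leukaemia and B220+ arrays, the 10 precursor arrays or the 9 wild-type arrays. The fit was run on simulated data with planted shifts and independent noise for each gene. Sex, pairing and cell content were not simulated, so that run is no check on them. Relations over 7 arrays used exact permutation of all 5040 pairings. The labels call replicates biological. The members and gene lists were chosen with earlier results of these data known. Named genes were the 4 members with Pax5 and Xist, up to 3 genes called with the lowest adjusted p per pathway list and comparison, and the 5 (24 arrays) and 3 (14 arrays) most correlated genes. Smoc2, Synpo2l, Synpo in leukaemias with both copies, Eda, Edar, Tnfaip3 between leukaemias and the single B lineage markers were added after their values were seen. Same-numbered oncogene-bearing precursors deviated together (r 0.208 to 0.250 over genes in 3 pairs, limit 0.1). Unlike-numbered ones had r from -0.346 to 0.130, so the limit was passed there too. Replicate 3 had the lowest cell cycle mean of both groups (8.90 heterozygous, 9.21 with both copies), and its part in these r was not tested. The numbers were treated as possible pairs in the replicate block alone, and the main fits are unpaired. The labels themselves give no shared litter, batch or day. In the other comparisons the numbers are only numbers. Promoters are RefSeq GRCm38.p6, which was also used for symbols. Alternatives tried were 3 further scalings, weights per array, an intensity trend in the spread, leaving out dim genes, averaging a gene's probe sets, one fit, sex, the replicate block, wild-type precursors as the control and leaving out each array.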

Additional observations from a re-analysis of the deposited data

Results flagged for a closer look

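Synpo2 on heterozygous leukaemia 5 was 9.34 and stood far from the other 6 heterozygous leukaemias: its gap to the nearest of them was 0.763 of the whole range, above Dixon's critical value of 0.568 for 7 samples. Of 12 gene and group combinations of 4 to 10 samples examined this way, 1 passed, where chance passes about 1 in 20.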

How the results depend on the processing

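Of 816 values under an alternative, 752 were counted as unchanged, which did not always mean the same direction. Rassf2 in heterozygous leukaemias against B220+ cells was among them. It turned from -0.018 as deposited to 0.051 after quantile normalization, and passed limma under neither. Numbers of genes called were included too, such as 7405 after quantile normalization against 6336 as deposited in that comparison. Edaradd kept its calls in both kinds of leukaemia. The cause was not tested for the changes that follow.

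With median centring limma called 12413 genes in heterozygous leukaemias against B220+ cells (6336 as deposited) and 8809 in leukaemias with both copies (4260); it moved the median of all genes from -0.060 to -0.20 and from -0.073 to -0.21. Array weights gave 2281 genes for the leukaemias with both copies, 83 between the leukaemias (373) and 79 between the oncogene-bearing precursors (5). One fit of all arrays gave 1038 between the leukaemias, 2 between these precursors and 1762 between B220+ cells and wild-type precursors (4783). Sex as a covariate gave 16 between the oncogene-bearing precursors, as did their males alone, chosen after seeing the data. The replicate block gave 2726 genes for leukaemias with both copies against B220+ cells, 106 between the leukaemias and 0 between the oncogene-bearing precursors, where it ended the calls that chose the 4 genes; in the other tested comparisons it changed no call of theirs.

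With wild-type precursors as the control, Rassf2 in heterozygous leukaemias was 0.65, against -0.018 with B220+ cells. Between the oncogene-bearing precursors Synpo2 moved to 1.26 (quantile), and Rassf2 to 0.42 (quantile), 0.42 (cyclic loess) and 0.64 (array weights). Against wild-type precursors the heterozygous Edaradd difference was -1.25 with array weights and -1.67 with sex, and Synpo2 0.98 with sex. These values with sex are those of the 1 female heterozygous array against the wild-type arrays. In BCR/ABL precursors with both copies against wild type, Rassf2 turned to 0.039 (quantile) and 0.040 (cyclic loess), Edaradd was 0.18 (quantile), and with sex Smoc1 was 0.44, Synpo2 -0.011 and Edaradd -0.38; sex and group coincide there but for the heterozygous arrays. In wild-type B220+ cells against precursors, Smoc1 passed limma with quantile normalization (0.25), median centring (0.25) and array weights (0.27), and Synpo2 (-0.42) and Edaradd (0.37) did not pass in one fit of all arrays.

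Leaving out 1 array gave 2235 to 4755 genes for leukaemias with both copies set against B220+ cells (lowest without leukaemia 1 with both copies) and 262 to 2137 between the leukaemias (highest without leukaemia 2 with both copies). Between the oncogene-bearing precursors it gave 1 to 138: 138 without heterozygous precursor 2, 16 without 3 and 1 without 1; 3 and 1 without BCR/ABL precursors 1 and 2 with both copies; and 1 without any of the 4 wild-type arrays, which enter through the shared spread. So the list of 5 genes that yielded the members depended on single arrays. Synpo2 ranged from 0.65 to 1.10 and Rassf2 from -1.19 to 0.031 in leukaemias with both copies, Rassf2 from -0.049 to 1.17 between the leukaemias, and Smoc1 from 0.16 to 0.28 between B220+ cells and wild-type precursors. A lone array of a group was assumed to vary like the others.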
